A study of Daphnia magna with 24 samples.

Results

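The levels of 5 defence-related array features of Daphnia magna, a freshwater crustacean, were followed across silver exposures. The features are DM01743P3 (Spätzle 2-like protein), DM01544P2 (animal haem peroxidase), DM02004P1 (putative defense protein), DM02265P4 (phage related lysozyme) and DM01176P3 (thioester-containing protein). They are 5 of the 14338 features on each array. They were taken by feature ID from the authors' deposited table of silver nanowire exposures over medium, with results of these data in view, so every difference from Control is given below as a description without a test. All 5 were measured on all 24 arrays. No filter on low values was applied.

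Whole animals were exposed for 24 h, about 20 per exposure, and RNA was read on single-colour (Cy3) arrays. There were 6 groups of 4 arrays, 24 in all. Control animals were kept in medium alone, and Ag+ animals received dissolved silver. The nanowire groups were long or short wires coated with polyvinylpyrrolidone (L-PVP-NW and S-PVP-NW) or with silica (L-SiO2-NW and S-SiO2-NW). All 6 groups shared COMBO growth medium and 16 h of light with 8 h of dark per day. Each silver form was given at 1/10 of its LC50, its median lethal concentration, so the mass of silver may differ between groups. The sources used here give neither the animals' age nor the silver concentrations. In RNA from whole animals, fewer cells of a type and less RNA per cell cannot be told apart.

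Spätzle is known from Drosophila as a secreted ligand that proteases activate and that then binds the receptor Toll, the entry point of a pathway used in both embryonic patterning and immunity. Haem peroxidases use peroxide to oxidise other molecules, and peroxinectins are family members that, in crayfish, also act in the adhesion of blood cells. Lysozymes cut the peptidoglycan wall of bacteria, and thioester-containing proteins of the mosquito Anopheles gambiae attach to microbes in a complement-like way. None of these roles was measured in Daphnia magna here.

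The names in the deposited table came from protein searches, and the table writes Spätzle without its ä. DM01743P3 matched a protein of the salmon louse Lepeophtheirus salmonis at 78 of 172 residues (E = 4e-35). DM01544P2 matched one of the nematode Brugia malayi at 28 of 62 residues, with E = 0.001 at the limit taken for a usable name. DM02004P1 matched one of the moth Antheraea mylitta at 62 of 166 residues (E = 7e-19). DM01176P3 matched one of Anopheles gambiae at 30 of 62 residues (E = 6e-05).

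The description of DM02265P4 named a bacterial protein of Bartonella henselae, matched at 31 of 58 residues (E = 3e-13). Its contig also matched the Daphnia pulex assembly asmbl_7452 at 401 of 490 bases. The descriptions of DM02265P4 and DM01176P3 did not hold the word immunity, so these features are called here by their matches. Over the 5 features, protein identity ran from 37 to 53% and nucleotide identity to Daphnia pulex from 81 to 87%.

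The probe sequences are shown for the 5 features and for 3 related ones, because whether 2 probes could read one transcript decides how the Spätzle-like results are counted. They are printed 5′ to 3′ as the authors' deposited table gives them. The sources used here give neither their strand relative to the transcript nor their genome positions. Capitals mark the run of 29 bases that 2 of the Spätzle 2-like probes share.
DM01743P3: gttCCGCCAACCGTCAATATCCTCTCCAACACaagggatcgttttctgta
DM02810P1: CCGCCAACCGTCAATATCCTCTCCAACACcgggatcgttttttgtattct
DM02038P1: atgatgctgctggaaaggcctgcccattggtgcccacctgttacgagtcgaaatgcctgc
DM01544P2: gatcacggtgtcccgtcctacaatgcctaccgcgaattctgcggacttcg
DM06157P1: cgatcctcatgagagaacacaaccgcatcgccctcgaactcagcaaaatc
DM02004P1: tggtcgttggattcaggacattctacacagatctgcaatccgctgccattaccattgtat
DM02265P4: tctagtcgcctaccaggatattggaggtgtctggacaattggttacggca
DM01176P3: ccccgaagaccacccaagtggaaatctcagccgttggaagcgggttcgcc
Among the 120 pairs of the 16 defence-related probes, this was the only pair with a shared run of 15 bases or more, and the next longest run was 9 bases. DM01743P3 and DM02810P1 also matched overlapping stretches of one Daphnia pulex assembly, asmbl_17601. Another Spätzle 2-like feature, DM06305P3, matched that stretch too, without the shared probe run. Because of the shared run, DM01743P3 and DM02810P1 may read the same or near-identical transcripts and are not counted as 2 independent measurements.

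The label of whole animals was set against organ markers found by word in the table. Mean normalised log2 levels ran over the arrays from 7.80 to 11.11 for 10 yolk, 7.13 to 8.78 for 10 muscle, 8.88 to 10.79 for 3 eye and 7.41 to 8.96 for 5 hemoglobin features. They were lowest for 3 blood cell (haemocyte) features, at 6.34 to 7.80, of which the peroxinectins DM02992P3 and DM05938P1 were mostly dim. Most features on these arrays were dim, with median intensities of 60 to 72 scanner units per array. A value below 2 times its array's lower quartile (100 to 116 units) is called dim, and 3491 to 5269 features per array were above that limit. By mean normalised level, DM01743P3 and DM02004P1 each stood above 98.8% of all features, DM01544P2 above 89.3%, DM02265P4 above 86.3% and DM01176P3 above 80.6%. Of the 5, DM01544P2 was dim on 1 array and DM01176P3 on 2. The 1st percentile of intensity, called the array floor, was 46 to 50 in Control, 45 to 46 in Ag+, 48 to 50 in L-PVP-NW and 41 to 43 in S-PVP-NW. It was also 41 to 43 in L-SiO2-NW, and 42 to 45.37 in S-SiO2-NW. Floors did not overlap between, for example, S-PVP-NW and each of Control, Ag+ and L-PVP-NW. Where floors do not overlap, exposure and whatever set the floor cannot be told apart. The sources used here do not say what set it.

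The Spätzle 2-like feature DM01743P3 was lowest in animals exposed to short PVP-coated wires. On Control arrays 1 to 4 its intensity was 12675, 11538, 7925 and 5810, on Ag+ arrays 7021, 6084, 7874 and 6338, and on S-PVP-NW arrays 883, 2061, 3333 and 1645. With long PVP-coated wires it was 9876, 7452, 13024 and 5342, with long silica-coated wires 9336, 5869, 14127 and 5736, and with short silica-coated wires 5156, 9381, 5066 and 5074. All 4 S-PVP-NW arrays were below all 20 others, and the other groups overlapped one another.

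On the normalised log2 scale DM01743P3 had a mean level of 10.73 ± 0.65 in S-PVP-NW and 13.22 ± 0.57 in Control (SD, n = 4 arrays each). The difference was -2.49 ± 0.31 (SE of the fit), a level 5.63-fold lower. The differences were -0.88 for S-SiO2-NW, -0.44 for Ag+, -0.37 for L-SiO2-NW and 0.01 for L-PVP-NW, each with the same SE. The authors' deposited table gave log2 ratios of -3.0 for S-PVP-NW and -1.3 for S-SiO2-NW. In the order of group means, S-SiO2-NW above S-PVP-NW was the single pair of neighbours whose arrays did not overlap.

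Contrasts between exposures take no difference from Control, although Control arrays enter the normalisation and the shared estimate of spread. They were tested with limma, with p-values adjusted over all 14338 features. The exposed arrays also entered the choice of the 5 features, so these p-values are not independent support for that choice, and they measure the spread between arrays that may or may not be separate cultures. DM01743P3 was lower in S-PVP-NW than in Ag+, with a difference of -2.06 ± 0.31 log2 units (limma adjusted p = 0.000572). Among PVP-coated wires it was higher with long than with short ones by 2.50 ± 0.31 (95% confidence interval 1.85 to 3.15, limma adjusted p = 0.000593). Among short wires it was higher with silica than with PVP by 1.61 ± 0.31 (0.96 to 2.26, limma adjusted p = 0.0274).

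The same feature did not pass the test for coating among long wires, where silica minus PVP was -0.38 (95% confidence interval -1.03 to 0.27, limma adjusted p = 0.543). Long minus short silica-coated wires gave 0.51 (-0.14 to 1.17, limma adjusted p = 0.985). The test of whether the coating difference itself depended on length, long minus short, gave -1.99 ± 0.44 and did not pass after adjustment (limma adjusted p = 0.173). With the array floor as a covariate the long against short PVP contrast lost its call (limma adjusted p = 0.471), while S-PVP-NW against Ag+ kept its call under all 18 alternatives. The silica against PVP contrast of short wires kept its call under 12 of 18, with limma adjusted p from 0.0158 to 0.0937, the highest where only the compared groups entered the fit.

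**Figure D1:**
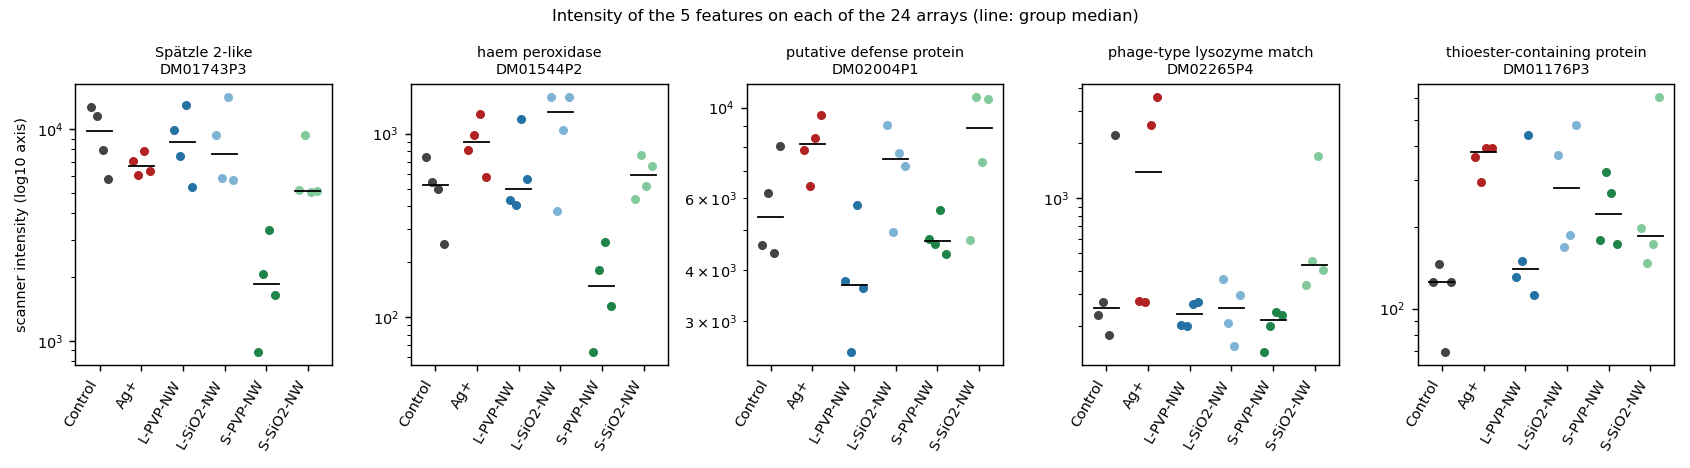
Scanner intensity (log10 axis, one scale per panel) of the 5 features on each of the 24 arrays, with points for arrays and lines for group medians. For DM01743P3 all 4 S-PVP-NW arrays (883 to 3333) lie below every other array, and for DM02265P4 the 4 arrays at 1695 to 3579 stand above the rest, which reach 454.

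Animals exposed to short PVP-coated wires also had the lowest haem peroxidase signal, DM01544P2. Its intensity was 749, 545, 497 and 250 on the Control arrays, 817, 978, 1282 and 580 in Ag+, and 64, 180, 257 and 115 in S-PVP-NW. It was 432, 409, 1202 and 562 in L-PVP-NW, 1577, 379, 1048 and 1580 in L-SiO2-NW, and 442, 762, 519 and 665 in S-SiO2-NW. The S-PVP-NW arrays were below every other exposed array. Their highest intensity, 257, overlapped Control 4 at 250, and the 2 groups separated only after quantile normalisation, which sets every array to one distribution.

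The normalised level of DM01544P2 was 7.12 ± 0.70 in S-PVP-NW and 9.29 ± 0.98 in Control (SD, n = 4 each), a difference of -2.17 ± 0.43 (SE). The deposited table of the authors listed -2.3 for this exposure and no value for the others. The differences from Control were 0.33 for Ag+, 0.27 for L-PVP-NW, 0.57 for L-SiO2-NW and -0.43 for S-SiO2-NW, all with overlapping arrays. Without Control 4 they were -0.14 for Ag+, -0.20 for L-PVP-NW, 0.10 for L-SiO2-NW and -0.91 for S-SiO2-NW, and -2.64 for S-PVP-NW. With median centring the S-SiO2-NW difference was 0.21.

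Between exposures, DM01544P2 was lower in S-PVP-NW than in Ag+, with a difference of -2.50 ± 0.43 (limma adjusted p = 0.00125). Among PVP-coated wires it was higher with long than with short ones by 2.43 ± 0.43 (95% confidence interval 1.54 to 3.33, limma adjusted p = 0.00724), a call lost with the array floor as a covariate (limma adjusted p = 0.615). The coating difference of short wires, silica minus PVP, was 1.73 (0.84 to 2.63) and missed the threshold (limma adjusted p = 0.0579), although the arrays did not overlap. Long minus short silica-coated wires gave 1.00 (0.11 to 1.90, limma adjusted p = 0.785). The change of the coating difference with length was -1.43 ± 0.61 (limma adjusted p = 0.588).

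DM01743P3 and DM01544P2 correlated at r = 0.876 over the 24 arrays and at 0.668 after group means were removed. The 24 arrays fall into 6 groups of shared exposure, so these correlations are descriptions. Features for cuticle, the covering made by the epidermis, moved with DM01743P3 and, less closely, with DM01544P2. The mean normalised log2 level of the 19 cuticle features was 7.66 to 8.46 on the S-PVP-NW arrays, 8.52 to 9.02 in Ag+, 8.62 to 9.10 in S-SiO2-NW, 9.06 to 9.76 in Control, 9.20 to 9.76 in L-PVP-NW and 8.57 to 9.93 in L-SiO2-NW. That mean correlated with DM01743P3 at r = 0.885 (0.807 within groups) and with DM01544P2 at 0.672 (0.326 within groups). The mean of the gut features described below correlated with DM01544P2 at -0.229 (-0.593 within groups) and with DM01743P3 at 0.01 (-0.281 within groups).

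Of the 19 cuticle features, 11 fell and 0 rose in S-PVP-NW against Control in limma (1.07% of all features fell and 0.286% rose), and 18 had a difference below 0. In L-PVP-NW against S-PVP-NW 9 were higher and 0 lower (1.36% and 0.788% of all features). In S-PVP-NW against Ag+ 2 were lower and 0 higher (5.67% and 5.85%). A single value among them was 0, and 3 of the 19 were dim on all 24 arrays. The cuticle list comes from the deposited table, whose features the authors selected on these samples. Its counts beside the shares of all features are therefore not independent evidence. The part of the cuticle features in the Spätzle-like and peroxidase differences was not tested.

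The other Spätzle 2-like features of the table were also lowest in S-PVP-NW where they were bright. There were 6 Spätzle 2-like features in all, the other 5 matching the same salmon louse protein. The list they belong to was selected by the authors on these samples, so its direction is not independent evidence. DM02810P1, which shares the capital-letter run above, read 15488, 13208, 8358 and 6601 in Control and 1009, 2467, 4127 and 1903 in S-PVP-NW. Its difference from Control in S-PVP-NW was -2.44 ± 0.36, given as a description because it may read the transcript of DM01743P3. It correlated with DM01743P3 at r = 0.988, or 0.957 within groups.

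DM02038P1 has no shared probe run with DM01743P3 and matched another Daphnia pulex assembly, asmbl_17603. It read 2628, 2599, 2063 and 1127 in Control, 2460, 1667, 2759 and 1347 in Ag+, and 149, 769, 751 and 310 in S-PVP-NW. All 4 S-PVP-NW arrays were below all Control and Ag+ arrays. In S-PVP-NW it fell against Control, with a difference of -2.67 ± 0.45 (limma adjusted p = 0.0031). The authors' deposited table held a value for this feature in S-PVP-NW only (-2.9), so this p-value is not independent support for the fall. DM02038P1 lost this call when only the compared groups were fitted, and also when floor values entered the model. It was lower in S-PVP-NW than in Ag+, with a difference of -2.18 ± 0.45 (limma adjusted p = 0.004). Long against short PVP-coated wires gave 2.49 ± 0.45 (limma adjusted p = 0.00734). Its correlation with DM01743P3 was 0.921, or 0.707 within groups.

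The remaining 3 Spätzle 2-like features, DM05864P1, DM02891P1 and DM06305P3, were dim on all 24 arrays at 46 to 86 units. Each passed in 1 limma contrast, between groups whose array floors do not overlap. Both sides of these contrasts were near the background of the arrays, so no difference or direction is read from them. The protein match of DM06305P3 (E = 0.01) also lies outside the limit for a usable name. Its contig matched the same stretch of asmbl_17601 as that of the bright DM01743P3.

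**Figure D2:**
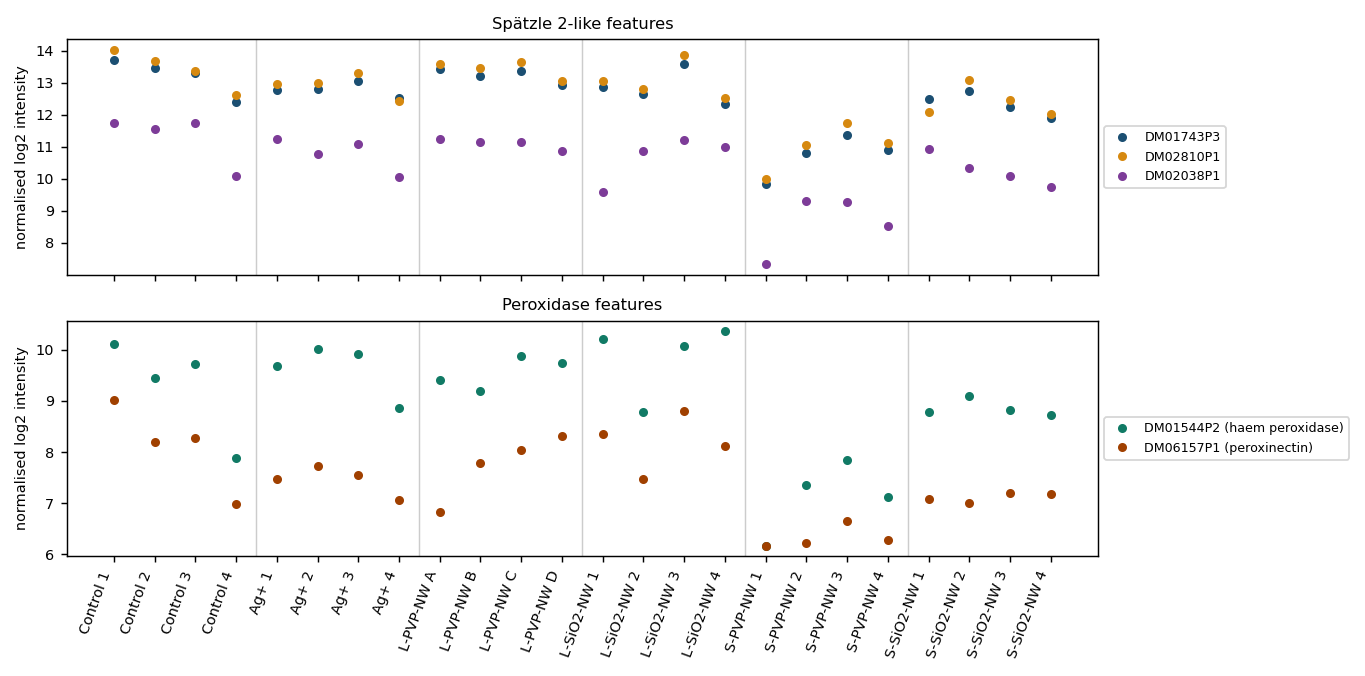
Normalised log2 intensity on each array, in order of group, for the 3 bright Spätzle 2-like features (top) and the haem peroxidase and peroxinectin features that match one Daphnia pulex assembly (bottom). In both panels the 4 S-PVP-NW arrays lie low, with DM01743P3 and DM02810P1 nearly superimposed (r = 0.988).

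The peroxinectin DM06157P1 matched the same Daphnia pulex assembly as DM01544P2, asmbl_6815, at positions 213 to 623 against 751 to 1099, with no shared probe run. Its protein match, to the mosquito Aedes aegypti, had E = 0.002, just outside the limit for a usable name. It read 334, 234, 192 and 130 in Control, 155, 183, 222 and 142 in Ag+, 87, 164, 304 and 221 in L-PVP-NW, and 64, 67, 98 and 67 in S-PVP-NW. All S-PVP-NW arrays were dim, so differences from them are given as bounds.

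DM06157P1 fell in S-PVP-NW against Control by at least 2.49-fold (fitted -1.79, limma adjusted p = 0.00927). Its deposited value, -1.9, was likewise for S-PVP-NW only, so this p-value is not independent support either. DM06157P1 also lost this call when only the compared groups were fitted, and when floor values entered the model. It was lower in S-PVP-NW than in Ag+ by at least 1.57-fold (limma adjusted p = 0.0403) and higher in L-PVP-NW than in S-PVP-NW by at least 1.92-fold (limma adjusted p = 0.0381), with 1 L-PVP-NW array dim as well. In each bound only the dim values of the lower group were replaced by their array's dim limit, and a dim value of the brighter group was kept as measured. It correlated with DM01544P2 at r = 0.853, or 0.762 within groups. Whether DM06157P1 and DM01544P2 read parts of the same transcript was not tested, so they are not counted as independent.

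The other peroxidase features passed in no contrast with S-PVP-NW, and most of their values were too dim for an order of groups to be read. The peroxinectin DM02992P3 was dim on 20 of 24 arrays and read 90, 57, 418 and 558 in Ag+ against 43, 55, 46 and 52 in L-SiO2-NW and 62, 64, 72 and 63 in L-PVP-NW. It was lower in L-SiO2-NW than in Ag+ by at least 1.69-fold (limma adjusted p = 0.0326) and in L-PVP-NW than in Ag+ by at least 1.28-fold (limma adjusted p = 0.0435). The arrays overlapped in both contrasts, 2 of the 4 Ag+ arrays were dim too, and Ag+ 3 and Ag+ 4 carry the difference. DM05947P2 (peroxidasin, an enzyme that crosslinks basement membrane in other animals) and DM05938P1 (peroxinectin, dim on all arrays) passed in none of the 14 contrasts. The bright DM05947P2 also had its lowest mean normalised level in S-PVP-NW. It was 9.48 ± 0.52 there and 9.66 ± 0.54 in Control (SD, n = 4 each), with overlapping arrays.

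The putative defense protein DM02004P1, whose activity the table does not state, was by mean normalised level highest with dissolved silver and lowest with PVP-coated wires of both lengths. Its intensity was 4615, 6185, 4413 and 8059 in Control, 7877, 6440, 8403 and 9615 in Ag+, and 3750, 2513, 5775 and 3603 in L-PVP-NW. It was 4767, 4644, 5623 and 4377 in S-PVP-NW, 9077, 4964, 7745 and 7183 in L-SiO2-NW, and 4750, 10611, 7358 and 10518 in S-SiO2-NW. The intensities of all 5 exposures overlapped those of Control.

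After quantile normalisation DM02004P1 averaged 12.68 ± 0.16 in Control, 13.10 ± 0.21 in Ag+, 12.08 ± 0.29 in L-PVP-NW and 12.17 ± 0.09 in S-PVP-NW (SD, n = 4 each). The differences from Control were 0.41 ± 0.16 in Ag+, -0.60 ± 0.16 in L-PVP-NW and -0.51 ± 0.16 in S-PVP-NW (SE), each without overlap of arrays. With median centring all 3 separations were lost, and with scaling to a common 75th percentile that of Ag+ was lost. The authors' deposited table gave -0.8 for S-PVP-NW. The differences were -0.02 in L-SiO2-NW and 0.14 in S-SiO2-NW.

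Between exposures, DM02004P1 was lower than in Ag+ in both PVP groups. The difference was -1.02 ± 0.16 in L-PVP-NW (limma adjusted p = 0.000852) and -0.93 ± 0.16 in S-PVP-NW (limma adjusted p = 0.00117). The first call was lost with the floor as a covariate (limma adjusted p = 0.0612), and the second without the 4 arrays of highest gut marker level described below (limma adjusted p = 0.066). Among long wires, silica was above PVP by 0.58 ± 0.16 (limma adjusted p = 0.0394), a call kept under 6 of 17 alternatives and lost with compared groups only (limma adjusted p = 0.0928). Among short wires the same coating difference was 0.65 ± 0.16 (95% confidence interval 0.32 to 0.98) and missed the threshold (limma adjusted p = 0.0541). Length gave -0.09 (-0.42 to 0.24) with PVP and -0.16 (-0.49 to 0.17) with silica, neither past the test.

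**Figure D3:**
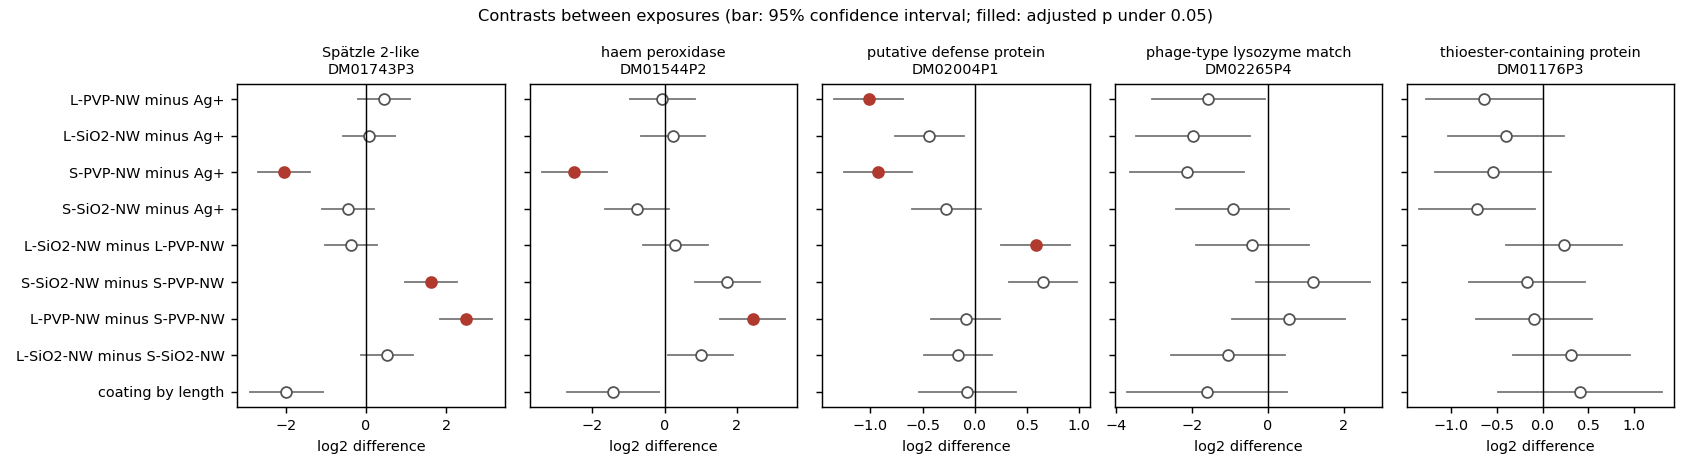
Log2 differences of the 5 features in the 9 contrasts between exposures (points) with 95% confidence intervals (bars), filled where the limma adjusted p is under 0.05. Of 45 tests 8 passed, all in DM01743P3, DM01544P2 and DM02004P1.

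The lysozyme match DM02265P4 was high on 4 arrays from 3 groups and near one level on the rest. Its intensity was 230, 269, 178 and 2234 in Control, 273, 271, 2519 and 3579 in Ag+, and 336, 454, 1695 and 406 in S-SiO2-NW. It was 201, 200, 263 and 269 in L-PVP-NW, 360, 207, 154 and 293 in L-SiO2-NW, and 143, 200, 238 and 228 in S-PVP-NW. The arrays Ag+ 4, Ag+ 3, Control 4 and S-SiO2-NW 3 held the 4 highest values, and all others were at or below 454.

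The same 4 arrays were the highest for gut features, which name the digestive enzymes trypsin, chymotrypsin and carboxypeptidase. The mean normalised log2 level of the 19 gut features was 9.06 on Control 4, 8.80 on Ag+ 4, 8.74 on S-SiO2-NW 3 and 8.65 on Ag+ 3, and at most 7.95 on the other 20. By group it was 7.66 to 9.06 in Control, 7.64 to 8.80 in Ag+, 7.38 to 8.74 in S-SiO2-NW, 7.54 to 7.95 with L-PVP-NW, 6.77 to 7.46 with L-SiO2-NW and 7.54 to 7.82 with S-PVP-NW. For 17 of the 19 features the mean over those 4 arrays was above the mean of the others, and for 8 they were exactly the 4 highest arrays. No gut feature had a value of 0, and 3 were dim on all arrays. The gut mean correlated with DM02265P4 at r = 0.881, or 0.930 within groups. The part of gut RNA in this feature's differences was not tested.

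The normalised level of DM02265P4 in S-PVP-NW differed from Control by -1.35 ± 0.72 and in L-SiO2-NW by -1.20 ± 0.72 (SE), both without overlap of arrays after quantile normalisation. Without Control 4 these differences were -0.68 and -0.53. Adding the floor as a covariate gave -2.73 and -2.71. The authors' deposited table gave -0.7 and -0.5. In Ag+ the difference was 0.77, which became 1.44 without Control 4 and -0.09 without all 4 arrays of highest gut level.

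None of the 9 contrasts between exposures passed for DM02265P4. The lowest p-values were those of S-PVP-NW minus Ag+ (-2.12 ± 0.72, limma adjusted p = 0.0602) and L-SiO2-NW minus Ag+ (-1.97 ± 0.72, limma adjusted p = 0.106). Its interval for silica minus PVP ran from -1.89 to 1.09 among long wires and from -0.30 to 2.69 among short ones.

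**Figure D4:**
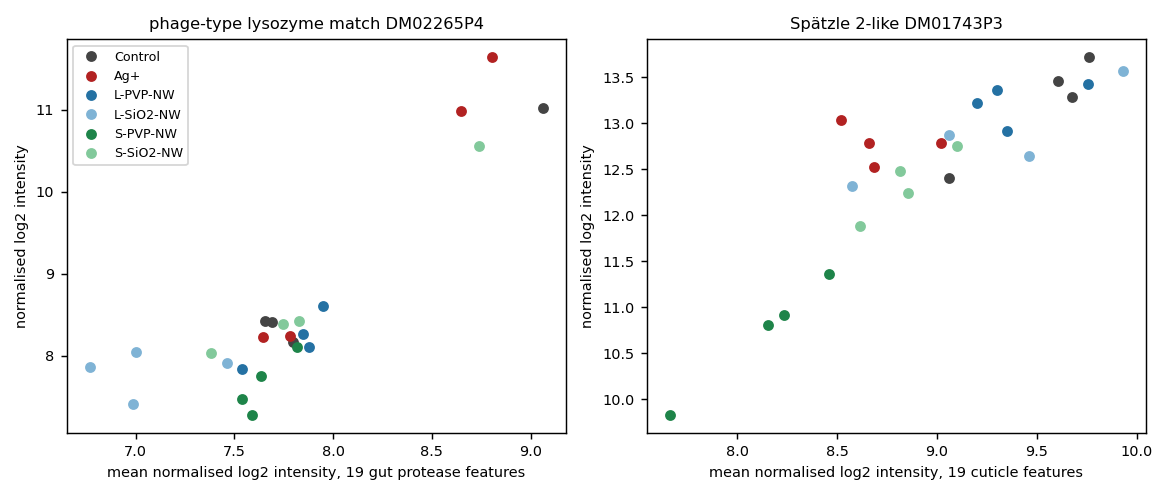
Normalised log2 intensity of DM02265P4 against the mean of 19 gut protease features (left) and of DM01743P3 against the mean of 19 cuticle features (right), one point per array coloured by group. On the left 4 arrays from 3 groups stand apart at high values of both (r = 0.881), and on the right the S-PVP-NW arrays are lowest for both (r = 0.885).

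The thioester-containing protein DM01176P3 had a higher mean in every exposure than in Control. Its intensity was 125, 146, 69 and 125 in Control, 365, 295, 394 and 392 in Ag+, and 179, 320, 268 and 174 in S-PVP-NW. It was 131, 150, 440 and 112 in L-PVP-NW, 371, 169, 188 and 479 in L-SiO2-NW, and 199, 147, 174 and 606 in S-SiO2-NW. All S-PVP-NW, Ag+ and L-SiO2-NW arrays were above those of Control in intensity and under the 4 scalings tried, while L-PVP-NW and S-SiO2-NW overlapped Control after normalisation.

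The mean marker levels of some organs moved against DM01176P3, and those of the eye and of haemocytes moved with it. The level of DM01176P3 correlated with the mean of the 5 hemoglobin features at r = -0.645 (-0.666 within groups). It was -0.649 (-0.366) for the 10 muscle features and -0.517 (-0.402) for the 10 yolk features. Cuticle features gave -0.411 (-0.333) and gut features -0.297 (-0.472). With eye features it was 0.533 (0.501) and with haemocyte features 0.54 (0.279). Of the 3 haemocyte features, the mostly dim DM02992P3 and DM05938P1 gave 0.191 (-0.132) and -0.254 (-0.132). The haemocyte mean therefore does not stand for each of its features. On the normalised log2 scale the muscle mean was 8.25 to 8.78 in Control, 7.13 to 7.32 with Ag+, 7.95 to 8.59 with L-PVP-NW, 7.71 to 8.48 with L-SiO2-NW, 7.79 to 8.43 with S-PVP-NW and 7.69 to 8.11 with S-SiO2-NW. The yolk mean was 10.07 to 10.89 in Control, 7.85 to 8.20 with Ag+, 7.80 to 9.93 with L-PVP-NW, 10.28 to 11.11 with L-SiO2-NW, 7.88 to 9.61 with S-PVP-NW and 9.40 to 10.495 with S-SiO2-NW.

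The hemoglobin mean was 8.57 to 8.91 in Control, 7.41 to 8.81 with Ag+, 7.94 to 8.90 with L-PVP-NW, 7.88 to 8.93 with L-SiO2-NW, 7.54 to 8.20 with S-PVP-NW and 7.58 to 8.96 with S-SiO2-NW. In Ag+ against Control 9 of 10 muscle, 7 of 10 yolk and 3 of 5 hemoglobin features fell in limma and 0 rose. Of all 14338 features, 1079 fell and 1478 rose, and 17.8% passed in either direction. These organ lists come from the deposited table, whose features the authors selected on these samples. Their counts beside those of all features are therefore not independent evidence. The part of these organs in the DM01176P3 differences was not tested.

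The log2 differences of DM01176P3 from Control were 1.31 for Ag+, 0.91 for L-SiO2-NW, 0.77 for S-PVP-NW, 0.68 for L-PVP-NW and 0.60 for S-SiO2-NW, each ± 0.30 (SE). The normalised means were 8.38 ± 0.15 in Ag+ and 7.06 ± 0.46 in Control (SD, n = 4 each). The authors' deposited table gave 1.2 for Ag+, 0.9 for L-SiO2-NW and 0.6 for S-PVP-NW. Control 3, at 69, and L-PVP-NW D, at 112, were dim, and the offset used in the background correction pulls differences at such levels toward 0. No contrast between exposures passed for this feature. Nanowires minus Ag+ ran from -0.72 in S-SiO2-NW (95% confidence interval -1.35 to -0.08, limma adjusted p = 0.24) to -0.40 in L-SiO2-NW (-1.04 to 0.23, limma adjusted p = 0.528).

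**Figure D5:**
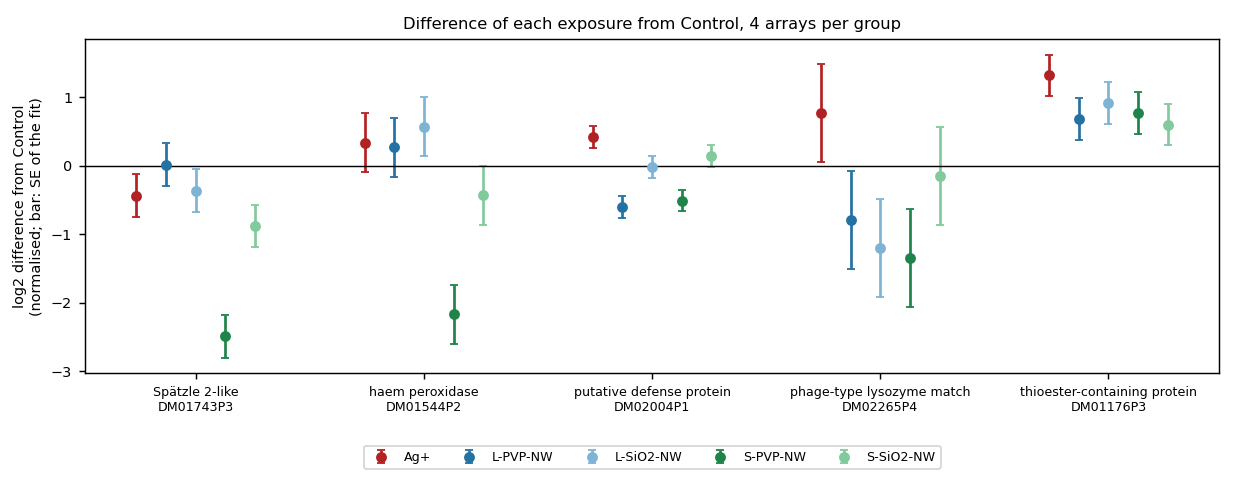
Normalised log2 difference of each exposure from Control for the 5 features, with bars for the SE of the fit (4 arrays per group). DM01743P3 and DM01544P2 lie at -2.49 and -2.17 in S-PVP-NW, and DM01176P3 lies above 0 in all 5 exposures.

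Across the 5 features and 5 exposures, 10 of 25 pairs had exposed arrays that did not overlap with Control after quantile normalisation. In S-PVP-NW 4 of 5 features were below Control, where 3.58% of all features were, and 1 was above, where 5.16% were. In Ag+ 2 were above (11.1% of all features) and 0 below (7.71%). In L-SiO2-NW 1 was above (4.87%) and 1 below (4.02%), in L-PVP-NW 0 were above (2.08%) and 1 below (1.33%), and with S-SiO2-NW 0 were above (6.5%) or below (4.24%). The features were chosen from these contrasts, so nothing is read from these shares. The authors' deposited table held values for 9 of the 25 pairs, all 9 of the same sign as the differences computed here and 0.013 to 0.698 log2 units away from them.

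Between exposures, the lower calls were most numerous in S-PVP-NW against Ag+, with 3 of the 5 features lower, where 5.67% of all features were, and 0 higher (5.85%). In L-PVP-NW against Ag+ 1 was lower (8.57%) and 0 higher (7.01%). In L-PVP-NW against S-PVP-NW 2 were higher (1.36%) and 0 lower (0.788%). For silica minus PVP, 1 was higher among long wires (2.69%) and 0 lower (2.1%), and 1 was higher among short wires (0.467%) and 0 lower (0.432%).

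The limma count was 0 in the other 4 contrasts. They were L-SiO2-NW against Ag+ (7.55% of all features past the test in either direction), S-SiO2-NW against Ag+ (2.63%), L-SiO2-NW against S-SiO2-NW (0.0349%) and the change of the coating difference with length (0.0209%). At an unadjusted p under 0.05 the counts there were 2, 1, 1 and 2 of the 5.

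The 11 other defence features of the deposited table, found by words for Toll signalling, peroxidases, antimicrobial proteins and opsonins, held the 5 further Spätzle 2-like features, 4 further peroxidase features and 2 alpha-2-macroglobulin features. The authors selected the features of that table on these samples, so the counts of this list beside the shares of all features are not independent evidence. Against Control in limma, 4 of 11 fell in S-PVP-NW (1.07% of all features fell) and 0 rose (0.286%), and 1 fell in S-SiO2-NW (1.92%) and 0 rose (2.82%). Of the 4, DM02891P1 was dim on all 24 arrays and DM02810P1 may read the transcript of DM01743P3, which leaves DM02038P1 and DM06157P1. DM06157P1 matched the same Daphnia pulex assembly as DM01544P2 and may not be independent of it. The call in S-SiO2-NW was the dim DM05864P1. None passed in Ag+, L-PVP-NW or L-SiO2-NW, where 17.8%, 0.0279% and 0.962% of all features passed. At an unadjusted p under 0.05 those 3 exposures had 4, 1 and 3 of the 11. The 5 calls against Control became 16 without Control 4 and 3 without Control 1, Control 2 or Ag+ 3, and 0 when each contrast was fitted on its own 8 arrays or with the array floor as a covariate. The median log2 difference of the list was -0.28 in S-PVP-NW against 0.01 over all features, and -0.22 in Ag+ against 0.01. These medians are the values of DM06305P3 and DM05938P1, both dim on all 24 arrays, so no shift of the list is read from them.

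Between exposures, 4 of these 11 were higher in L-PVP-NW than in S-PVP-NW (1.36% of all features) and 0 lower (0.788%), with a list median of 0.33 against -0.01 over all features. Those 4 hold DM02810P1 and DM06305P3, the latter dim on all 24 arrays. The list median of 0.33 is the value of DM06305P3, so no shift is read from it. In S-PVP-NW against Ag+ 3 were lower (5.67%), DM02810P1 among them, and 1 higher (5.85%), with a median of -0.55 against 0.00. This median is the value of DM05947P2, whose arrays overlapped between the 2 groups (limma adjusted p = 0.401), so no shift is read from it. The 10 calls between exposures became 5 without Ag+ 3, S-PVP-NW 1 or S-PVP-NW 4, 6 without Ag+ 4 or S-PVP-NW 2, and 4 with the floor covariate. The one that was higher, the alpha-2-macroglobulin DM01719P3, a protein of the same family as thioester-containing proteins, was dim on all arrays. The other, DM06554P2, had a match (E = 0.2) outside the limit for a usable name, read 99 to 571 in Control and 636 to 2023 in Ag+, and did not pass in any contrast.

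The 5 features did not form one pattern over the arrays. DM01743P3 correlated with DM02004P1 at r = 0.212, with DM02265P4 at 0.166 and with DM01176P3 at -0.143 over the 24 arrays. The features with a usable match most like DM01743P3 were DM02810P1 at r = 0.988, then DM02749P1 at 0.958 and DM02680P2 at 0.921, both matching one hypothetical Aedes aegypti protein. Those most like DM01544P2 were DM01743P3, DM02810P1 (0.871) and DM02749P1 (0.837), and over all features DM09387P2 (0.89), which has no description.

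DM02004P1 was most like DM02172P1 (nervous system antigen 1) at 0.724, DM02721P1 (a muscle fatty acid-binding protein) at 0.704 and DM02802P1 (NADH dehydrogenase subunit 5) at 0.665. Over all features the highest for it was DM00364P3 at 0.784. DM02265P4 was most like DM06084P1 at 0.972, DM01876P1 at 0.969 and DM02902P2 at 0.967, whose matches carry gene numbers of Anopheles gambiae, Tribolium castaneum and Drosophila melanogaster.

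DM01176P3 was most like DM00109P1 (CK2 alpha subunit, a protein kinase) at 0.864, DM00537P4 at 0.831 and DM00388P4 at 0.818, the last 2 matching hypothetical proteins. Over all features the highest for it was DM05155P1 at 0.928. DM02265P4 also followed the peroxinectin DM02992P3 at r = 0.862, or 0.897 within groups, on arrays where that feature was mostly dim.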

How the data were processed

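Intensity values were used as deposited by the authors: whole-number single-channel scanner intensities with a ceiling of 65535 and no scaling between arrays seen. Per the labels, 300 ng of Trizol-extracted RNA from whole animals received the Cy3 dye through Agilent's Quick-Amp kit. The sources used here name no scanner, extraction software or normalization. The log2 ratios of exposure over medium in the authors' deposited table cover 1826 of 14338 features and are rounded to 1 decimal, and the sources used here do not say how they were tested. Names and E values (a score of each sequence search) come from the same table deposited by the authors.

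On Ag+ 2, 310 values of 0 were treated as missing, none of them among the 16 defence features. Intensities were corrected with normexp (offset 50), converted to log2 and quantile-normalised. limma 3.58.1 in R 4.3.3 fitted 1 mean per group over 24 arrays with eBayes without trend (prior df 1.59), two-sided, with Benjamini-Hochberg adjustment over all features at 0.05. The code was tested on simulated data. Deviations of same-numbered arrays from their group means correlated above 0.1 for all 4 numbers in 2 of 10 pairs of groups (Control with Ag+, 0.132 to 0.41, and Ag+ with S-SiO2-NW, 0.264 to 0.429), and the labels do not say what a number marks. With 4 arrays per group, the number of arrays limits the precision.

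The 5 features and all lists were chosen with earlier results of these data known. Other defence features and organ markers were found by word match in the descriptions, the pattern for Spätzle allowing for its lost letter. Up to 4 features per word group that passed at least 1 contrast are named, by smallest p, and DM05864P1, DM05947P2, DM05938P1 and DM06554P2 are named beyond that rule, after their values were seen, to complete the list. Likeness names 3 features with E of 0.001 or less and the 1 highest over all. Alternatives were no background correction, 2 other scalings, leaving out the dimmest features, compared groups only, array weights, eBayes with trend, a replicate block, the array floor as a covariate, and each array left out. Leaving out the 4 arrays of highest gut level was added after seeing the data.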

Additional observations from a re-analysis of the deposited data

Results flagged for a closer look

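On the normalised log2 scale, in a group of 4 arrays, the gap from the highest or lowest array to its neighbour was divided by the group's range and set against Dixon's 95% critical value. Of 78 feature-by-group sets tested, 6 exceeded it, and chance alone gives about 1 in 20. The lysozyme match DM02265P4 gave 0.91 for Control 4 (11.03 against 8.17 to 8.42 on the other Control arrays) and 0.842 for S-SiO2-NW 3 (10.55 against 8.03 to 8.43). The peroxinectin DM02992P3 stood apart on the same 2 arrays, at 0.935 for Control 4 (6.83 against 6.05 to 6.10) and 0.897 for S-SiO2-NW 3 (7.56 against 5.87 to 6.04). The Spätzle 2-like DM02038P1 gave 0.894 for Control 4, where it was low (10.08 against 11.56 to 11.73). DM05864P1 gave 0.839 for S-PVP-NW 3, at 6.04 against 5.86 to 5.89, all of them dim.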

How the results depend on the processing

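No called value changed sign. Of 45 tests of the 5 features between exposures 8 passed, and 4 once the array floor was a covariate. The other alternatives that could be fitted to all contrasts gave 7 to 11, and each array left out in turn 7 to 11. The count of pairs without overlap with Control was 10, 4 with median centring and 6 with scaling to a common 75th percentile, and 10 to 13 with arrays left out, the 13 being without Control 4. For the other defence features against Control, 5 calls became 10 with the common 75th percentile, 8 without the dimmest features, 8 without the 4 arrays of highest gut level, and 0 with compared groups only, as with the floor covariate. At an unadjusted p under 0.05 in limma, these last 2 had 16 and 7 of 55 tests. With arrays left out this count ran from 3 (without Control 1, Control 2 or Ag+ 3) to 16 (without Control 4, of which 6 in S-PVP-NW and 5 in Ag+). Between exposures their 10 calls became 4 with the floor and 5 without the 4 arrays of highest gut level, and 5 to 11 with arrays left out, with 5 without Ag+ 3, S-PVP-NW 1 or S-PVP-NW 4 and 6 without Ag+ 4 or S-PVP-NW 2. The cause was not tested.

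The replicate block, fitted over the contrasts without L-PVP-NW (whose replicates carry letters), gave 5 calls against 4 for the 5 features. For the other defence features it gave 3 against 5 between exposures and 6 against 5 against Control. In the 2 pairs of groups whose same-numbered arrays deviated together, Ag+ with Control and Ag+ with S-SiO2-NW, the block changed 0 calls of the 16 features. In the other 8 pairs of groups the arrays share only a number. Over all 40 pairs of arrays r ran from -0.439 to 0.429, with 13 above 0.1.

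Limits: 4 arrays per group, floors that differ between groups, and the unknown scanner settings bound what the contrasts show. Dim features have compressed differences because of the offset of 50.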
